A study of Mus musculus with 6 samples.

Results

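The genes described here carry fatty acids into the heart muscle cell and burn them in the mitochondrion. Lipoprotein lipase frees the acids from circulating triglyceride, membrane and cytosolic carriers take them up, a CoA synthetase activates them, and the carnitine shuttle moves the acyl groups across the mitochondrial membranes. Inside, the repeated steps of beta-oxidation shorten each chain and pass electrons to the respiratory chain. This route supplies most of the fuel of the adult heart, and its genes are known targets of the nuclear receptors PPAR-alpha and ERR-alpha with the coactivator PGC-1. The list of 32 genes was taken by gene symbol, from probe sets that the platform annotation assigns to that symbol alone. Of the 32 genes, 30 had such a probe set among 18193 genes in all, and all 30 passed the filter on dim signals that left 11254 genes for the tests. Acsl1 was not analysed here, and neither was Cpt1b, whose probe set carries 3 gene symbols.

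Heart tissue of male mice aged 2 months on the B6 background was compared in 3 groups of 2 arrays each. RKIP-transgenic mice expressed RKIP (a protein known to regulate G-protein-coupled receptor kinases) from the alpha-MHC promoter, which is active in heart muscle. In GRK-Inh-transgenic mice the myocardium expressed a peptide that inhibits G-protein-coupled receptor kinases, from a promoter that the labels do not name. B6 control mice were wild type. Each transgenic group comes from what the labels describe as 1 mouse line, and nothing in them says that the 2 arrays of a group held RNA of separate animals. The p-values below therefore measure the spread between these arrays, which may be technical. In RNA of a whole tissue, fewer cells of a type and less RNA per cell cannot be told apart.

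Every value is an Affymetrix array signal, scaled to the same trimmed mean on all 6 arrays. Fold changes are differences of log2(signal + 50) with their SE, from a limma model over the 6 arrays, and genes were called where the p-value, adjusted by Benjamini-Hochberg over all 11254 genes, was under 0.05. Probe sets differ in brightness, so signals are compared between arrays and not between genes. The heart muscle markers were bright, with summed signals of 9 genes of 268717 and 266071 in RKIP-transgenic hearts, 258801 and 260091 in GRK-Inh-transgenic hearts, and 276544 and 268769 in controls. Of the 9 heart muscle markers, 7 had negative fold changes in RKIP-transgenic hearts and 1 was called lower. In GRK-Inh-transgenic hearts all 9 were negative (-0.11 to -0.01) and 0 were called. There limma gave 3 lower at an unadjusted p under 0.05, beside 16.1% of all genes. Of all genes tested, 46.5% and 43.7% had positive fold changes in these lines. The 8 skeletal muscle markers summed to no more than 337 on any array. Fibroblast markers fell in both lines, with 7 of 8 called lower in RKIP-transgenic hearts and 8 of 8 in GRK-Inh-transgenic hearts, and their summed signal was 38676 to 38880 and 36111 to 36871 in the lines, against 51298 to 54052 in controls. Of 4 white adipocyte markers tested, Adipoq, Car3 and Fabp4 were lower in RKIP-transgenic hearts and Fabp4 in GRK-Inh-transgenic hearts, while the fat cell marker Lep stayed at or under 19.9 on all arrays. The white adipocyte sum was 19479 to 20443 in RKIP-transgenic hearts, 23137 to 23226 in GRK-Inh-transgenic hearts and 25224 to 26512 in controls. Fabp4 made up most of it, at 18297 and 19203, 18997 and 19522, and 22680 and 21564 in the same order. In GRK-Inh-transgenic hearts 3 of the 4 markers tested had positive fold changes. Between the lines 2 of the 4 were called lower in RKIP-transgenic hearts, and the lowest fold change was -1.67. Of 8 macrophage markers, 1 was called lower in RKIP-transgenic hearts and 3 in GRK-Inh-transgenic hearts. Of 4 atrial markers, 3 and 1 were called lower in the same order, but 2 of the 4 were positive in GRK-Inh-transgenic hearts. All these marker counts are to be read beside the 5.51% and 7.27% of all genes called lower in these lines. A count of 1 gene says little of a whole cell type. Of 3 brown adipocyte markers tested, Cidea was called higher in RKIP-transgenic hearts (0.36 against controls, 0.25 against the other line). In GRK-Inh-transgenic hearts 0 were called, and limma gave 1 lower at an unadjusted p under 0.05, beside 16.1% of all genes. Ucp1 stayed at or under 37.2 on all arrays. The part of these cells in the results below was not tested. Pebp1, the mouse gene of RKIP, had signals of 9102 and 9140.4 in RKIP-transgenic hearts, 9079 and 9296 in GRK-Inh-transgenic hearts, and 9292 and 8766 in controls. Its groups overlapped (limma adjusted p = 0.866 for RKIP-transgenic against control). Whether that probe set reads the transgene is not given in the sources used here, so it checks no label.

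The sequences below are the stretches before the start sites of the genes that the results turn on: Acsl6, which had the largest difference of the 30 genes, and Hadhb, which shares its upstream region with Hadha. They are RefSeq windows of 300 bases in build GRCm38.p6, from 250 bases before to 50 after a start site. Windows were found for 24 of the 30 genes, 28 in all. The Acsl6 window, 1 of 3 for this gene, lies on the plus strand of chromosome 11 (chr11:54303574-54303873), and its capitals mark the only match among the 28 windows to TCAAGGTCA, the element that ERR receptors bind, read on the reverse strand 167 bases before the start.
Acsl6: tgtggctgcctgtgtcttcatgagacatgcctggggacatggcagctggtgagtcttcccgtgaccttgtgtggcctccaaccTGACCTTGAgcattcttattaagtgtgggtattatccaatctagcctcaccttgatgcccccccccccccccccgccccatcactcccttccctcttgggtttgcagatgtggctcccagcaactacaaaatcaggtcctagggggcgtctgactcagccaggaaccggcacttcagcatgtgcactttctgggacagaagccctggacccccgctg
The Hadhb window lies on the plus strand of chromosome 5 (chr5:30155003-30155302), and its capitals mark the 228 bases that it shares with the window of Hadha on the minus strand.
Hadhb: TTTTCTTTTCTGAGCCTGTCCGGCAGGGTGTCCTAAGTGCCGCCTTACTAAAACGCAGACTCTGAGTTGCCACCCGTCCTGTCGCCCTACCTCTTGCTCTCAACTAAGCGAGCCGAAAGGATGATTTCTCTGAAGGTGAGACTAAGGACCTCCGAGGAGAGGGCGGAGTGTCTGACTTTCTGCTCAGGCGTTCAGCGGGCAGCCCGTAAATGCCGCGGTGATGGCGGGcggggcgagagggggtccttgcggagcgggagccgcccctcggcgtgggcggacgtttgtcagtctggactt
Hadha and Hadhb are transcribed away from each other, from starts 273 bases apart. Both strands of all windows were searched for 4 motifs. TCAAGGTCA was in 1 of 28 windows (3.57%) and in 0.423% of the 32851 windows of the table. The shorter AGGTCA, the nuclear receptor site that is part of the ERR and DR1 letters, was in 6 windows (21.4%), against 16.3% of all. The DR1 element that PPAR and RXR bind, 2 copies of AGGTCA with any 1 base between them, was in 0 of the 28 windows and in 0.0396% of all. The NRF1 element, GCGCA and GCGC with any 1 base between them, was in 3 windows (10.7%; Etfb, Etfdh and Slc22a5), against 4.6% of all, and those 3 genes were not called in any comparison. The letters are a description of these windows and say nothing of what binds there.

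In RKIP-transgenic hearts 5 of the 30 genes rose and 0 fell against controls, while 5.32% of all genes tested were called higher and 5.51% lower. At an unadjusted p under 0.05 limma gave 8 genes higher and 1 lower, beside 11.8% and 13.5% of all genes. The 5 were Acsl6 for activation, Cd36 and Slc27a1 for uptake, and Hadha and Hadhb for the mitochondrial spiral. In GRK-Inh-transgenic hearts 4 genes rose (Acsl6, Cd36, Hadhb and Acadvl) and 1 fell (Acot13), beside 5.86% of all genes called higher and 7.27% called lower. There the unadjusted limma counts were 9 higher and 3 lower, beside 12.3% and 16.1% of all genes. Between the lines 1 gene was higher in RKIP-transgenic hearts (Slc27a1) and 0 lower, beside 4.47% and 4.35% of all genes, with 5 and 3 genes at an unadjusted p under 0.05 by limma, beside 12.9% and 10.2% of all genes. The lone call between the lines, 3.33% of the 30 genes, is a share below the background. Both lines share the control arrays, so their calls are given side by side and not as independent sets. The median log2 fold change over the 30 genes was 0.03 in RKIP-transgenic hearts and 0.06 in GRK-Inh-transgenic hearts, beside -0.02 and -0.03 over all genes tested. The median in RKIP-transgenic hearts was 0.05 without their replicate 2 and 0.055 without control replicate 1, and that in GRK-Inh-transgenic hearts was 0.0285 without control replicate 2 and 0.11 with the arrays shifted to one median. In each line 21 of 30 genes (70%) had a positive fold change, beside 46.5% and 43.7% of all genes. The 3'/5' signal ratios of the control probe sets, a sign of RNA quality, moved with the groups: for actin they were 2.92 and 2.96 in RKIP-transgenic hearts, 3.029 and 2.998 in GRK-Inh-transgenic hearts, and 3.25 and 3.11 in controls. For Gapdh they were 1.02 and 0.981 in RKIP-transgenic hearts, 0.997 and 0.955 in GRK-Inh-transgenic hearts, and 1.08 and 1.03 in controls. All 4 transgenic arrays lay below both controls on both ratios, and the part of RNA quality in these fold changes was not tested.

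**Figure D1:**
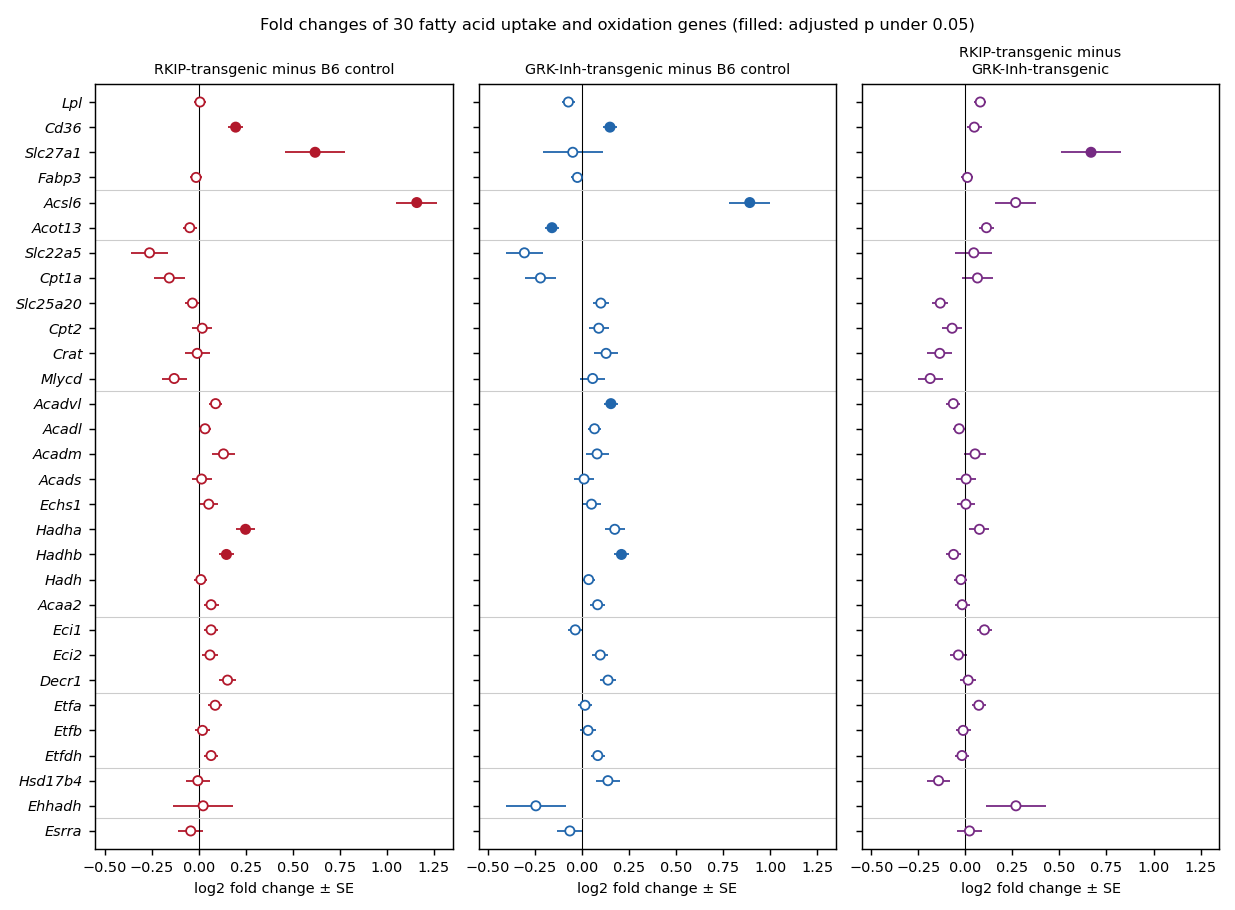
Log2 fold change (x axis) of each of the 30 genes (y axis, grouped by role from uptake at the top to the regulator Esrra at the bottom) in the 3 comparisons, with bars for the SE of the limma model and filled points for an adjusted p under 0.05. Acsl6 stands furthest right in both comparisons with controls (1.16 and 0.89), and Slc27a1 lies at 0.62 in RKIP-transgenic hearts and at -0.05 in GRK-Inh-transgenic hearts.

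Among the genes of lipolysis, uptake and binding, the fatty acid translocase Cd36 rose in both lines. Its signals were 15301 and 15095 in RKIP-transgenic hearts, 14436 and 14971.5 in GRK-Inh-transgenic hearts, and 12904.5 and 13621 in controls. Both arrays of each line lay above both controls, with a log2 fold change of 0.20 ± 0.04 in RKIP-transgenic hearts (SE, limma adjusted p = 0.00925) and 0.15 ± 0.04 in GRK-Inh-transgenic hearts (adjusted p = 0.0291), or 1.15-fold and 1.11-fold on signals with 50 added. The call in RKIP-transgenic hearts was lost without their replicate 1 (0.19, adjusted p = 0.0571) or without control replicate 1 (0.16, adjusted p = 0.062). That in GRK-Inh-transgenic hearts was lost without either of their arrays (0.17 and 0.12, adjusted p = 0.07 and 0.192) or without control replicate 1 (0.11, adjusted p = 0.147).

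Slc27a1, the fatty acid transport protein FATP1, rose in RKIP-transgenic hearts, and the difference between the lines passed the test. Its signals were 564 and 367 in RKIP-transgenic hearts, 283 and 255 in GRK-Inh-transgenic hearts, and 279 and 281 in controls. Both RKIP-transgenic arrays lay above the other 4, but they lay further apart than the arrays of either other group. The log2 fold change was 0.62 ± 0.16 against controls (limma adjusted p = 0.0319) and 0.67 ± 0.16 against GRK-Inh-transgenic hearts (adjusted p = 0.0269). GRK-Inh-transgenic hearts differed from controls by -0.05 ± 0.16 (adjusted p = 0.879). Without RKIP-transgenic replicate 1 the fold changes were 0.34 against controls (adjusted p = 0.204) and 0.39 against the other line (adjusted p = 0.163). Without replicate 2 they were 0.90 and 0.95 (adjusted p = 0.00312 and 0.00286). In RKIP-transgenic hearts the call also missed the threshold without control replicate 1 (0.61, adjusted p = 0.143) or 2 (0.62, adjusted p = 0.14), and the call between the lines without GRK-Inh-transgenic replicate 1 (0.73, adjusted p = 0.0723) or 2 (0.61, adjusted p = 0.129).

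The other 2 genes of this step were not called. Fabp3, the heart's cytosolic fatty acid-binding protein, had signals of 33495 and 33269 in RKIP-transgenic hearts, 32432.5 and 33847 in GRK-Inh-transgenic hearts, and 33942 and 33470.0 in controls. These groups overlapped, and the 95% interval of the fold change ran from -0.08 to 0.06 in RKIP-transgenic hearts and from -0.09 to 0.04 in GRK-Inh-transgenic hearts. Lpl, which encodes lipoprotein lipase, differed by 0.01 ± 0.03 and -0.07 ± 0.03 from controls in RKIP-transgenic and GRK-Inh-transgenic hearts. Signals of both genes lay close to the highest of any probe set on the arrays (37546 to 41679), and how far a difference can show at that brightness was not tested.

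In the activation step, the acyl-CoA synthetase Acsl6, which couples long-chain acids to CoA and is best known from brain, had the largest fold change of the 30 genes in each line. Its signals were 539.9 and 458 in RKIP-transgenic hearts, 396 and 414 in GRK-Inh-transgenic hearts, and 199 and 191 in controls. All 4 transgenic arrays lay above both controls, and the RKIP-transgenic arrays above the GRK-Inh-transgenic ones. The log2 fold change was 1.16 ± 0.11 in RKIP-transgenic hearts (limma adjusted p = 8.11e-05) and 0.89 ± 0.11 in GRK-Inh-transgenic hearts (adjusted p = 0.000375), or 2.23-fold and 1.85-fold on signals with 50 added. The lines differed by 0.27 ± 0.11 (adjusted p = 0.171). Acsl6 kept both calls in all 19 alternatives run for each, with values of 0.77 to 1.28 and of 0.52 to 0.99. A second, dim Acsl6 probe set (33.5 to 80.5 on the 6 arrays) differed by 0.38 and 0.15 and was not called.

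Acot13, a thioesterase that hydrolyses acyl-CoA back to free acid, was the only one of the 30 genes called lower. Its signals were 9176 and 8881 in RKIP-transgenic hearts, 8408 and 8290.2 in GRK-Inh-transgenic hearts, and 9305 and 9359 in controls. The GRK-Inh-transgenic arrays were the lowest of the 6, and the RKIP-transgenic ones lay between them and the controls. It differed from controls by -0.16 ± 0.04 in GRK-Inh-transgenic hearts (limma adjusted p = 0.0183) and -0.05 ± 0.04 in RKIP-transgenic hearts (adjusted p = 0.483), and the lines differed by 0.11 ± 0.04 (adjusted p = 0.101). This call was lost in each fit that left out an array: without GRK-Inh-transgenic replicate 1 (-0.17) or 2 (-0.15), or control replicate 1 (-0.16) or 2 (-0.16), at adjusted p from 0.0597 to 0.118. It was also lost with the arrays shifted to one median (-0.12, adjusted p = 0.0964).

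**Figure D2:**
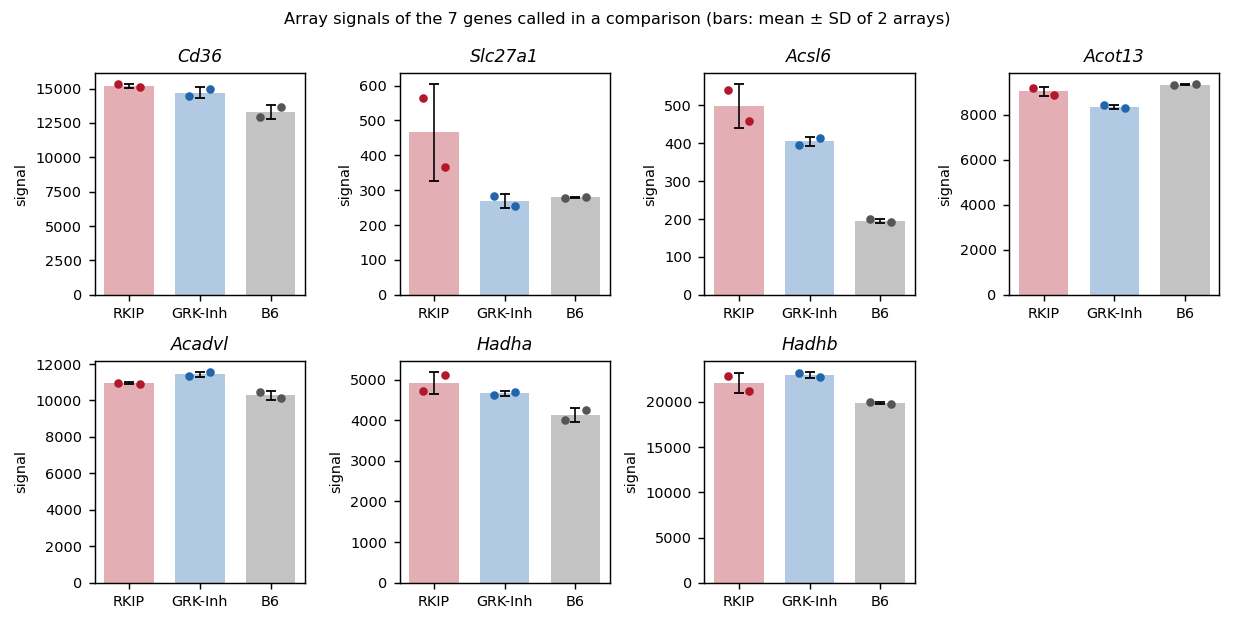
Signals (y axis, linear, from 0) of the 7 genes called in at least 1 comparison, with a point for each array and bars for the mean ± SD of the 2 arrays of a group. Acsl6 averages 499 and 405 in the RKIP-transgenic and GRK-Inh-transgenic lines, against 195 in B6 controls, Slc27a1 is high on the RKIP-transgenic arrays alone, and the other 5 genes differ by a small part of their signal.

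The 6 measured genes of the carnitine shuttle and its control were not called in any comparison. At an unadjusted p under 0.05 limma gave 1 lower in RKIP-transgenic hearts, beside 13.5% of all genes. In GRK-Inh-transgenic hearts it gave 1 higher and 2 lower, beside 12.3% and 16.1%. Between the lines it gave 0 higher and 2 lower (Slc25a20 and Mlycd), beside 12.9% and 10.2%. The carnitine transporter Slc22a5 had the largest difference of the 6, -0.26 ± 0.10 in RKIP-transgenic hearts (limma adjusted p = 0.121) and -0.31 ± 0.10 in GRK-Inh-transgenic hearts (adjusted p = 0.0644). Its signals were 589 and 575 in RKIP-transgenic hearts, 575 and 551 in GRK-Inh-transgenic hearts, and 642 and 779.7 in controls. All 4 transgenic arrays lay below both controls, and the controls were further apart than the arrays of either line. Without control replicate 1 the fall in GRK-Inh-transgenic hearts passed the test (adjusted p = 0.0303).

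Cpt1a, the liver form of the outer-membrane carnitine palmitoyltransferase, differed by -0.16 ± 0.08 in RKIP-transgenic hearts and by -0.22 ± 0.08 in GRK-Inh-transgenic hearts (limma adjusted p = 0.271 and 0.106). Slc25a20, the carnitine-acylcarnitine carrier of the inner membrane, had signals of 7497 and 7292.5 in RKIP-transgenic hearts, 8052 and 8176 in GRK-Inh-transgenic hearts, and 7761 and 7379 in controls. The GRK-Inh-transgenic arrays were the highest, and the RKIP-transgenic arrays overlapped the controls. The lines differed by -0.13 ± 0.04 (adjusted p = 0.0779). Cpt2, the inner-membrane palmitoyltransferase, differed from controls by 0.02 and 0.09 in the RKIP-transgenic and GRK-Inh-transgenic lines, and the carnitine acetyltransferase Crat by -0.01 and 0.13. Mlycd, the decarboxylase that removes the Cpt1 inhibitor malonyl-CoA, differed by -0.13 and 0.06, with an adjusted p of 0.114 between the lines.

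In the mitochondrial spiral, all 9 genes had positive fold changes in both lines. They ran from 0.01 to 0.25 in RKIP-transgenic hearts and from 0.01 to 0.21 in GRK-Inh-transgenic hearts, and 2 of 9 were called in each. Of all genes tested, 46.5% and 43.7% had positive fold changes in these lines, and 5.32% and 5.86% were called higher. After quantile normalization 9 of 9 were positive too, the lowest at 0.0009 in GRK-Inh-transgenic hearts. The 2 lines share their controls, so their signs are not independent of each other. Between the lines 0 of 9 genes were called, and limma gave 0 at an unadjusted p under 0.05.

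Hadha and Hadhb encode the alpha and beta subunits of the mitochondrial trifunctional protein, which carries out the last steps of the cycle on long chains. Hadhb had signals of 22832 and 21258 in RKIP-transgenic hearts, 23239 and 22773 in GRK-Inh-transgenic hearts, and 19984 and 19794 in controls. All 4 transgenic arrays lay above both controls. The difference from controls was 0.15 ± 0.04 in RKIP-transgenic hearts (limma adjusted p = 0.0334) and 0.21 ± 0.04 in GRK-Inh-transgenic hearts (adjusted p = 0.00443). The call in RKIP-transgenic hearts was lost without their replicate 1 (0.10, adjusted p = 0.234) and without control replicate 1 (0.15, adjusted p = 0.0983) or 2 (0.14, adjusted p = 0.129). That in GRK-Inh-transgenic hearts stood without each of the 4 arrays (0.19 to 0.22). Another bright Hadhb probe set differed by 0.01 and 0.12 (adjusted p = 0.974 and 0.292, from a fit over all probe sets). It is of the _x_at type, whose probes can match several sequences. Both calls were lost when the probe sets of a gene were averaged (0.15 and 0.10, adjusted p = 0.0727 and 0.2). That average also took in a dim Hadhb probe set, with signals of 125 to 184.

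Hadha had signals of 4717 and 5111 in RKIP-transgenic hearts, 4618 and 4702 in GRK-Inh-transgenic hearts, and 4000.3 and 4253 in controls. Again the 4 transgenic arrays lay above both controls. The differences from controls were 0.25 ± 0.05 in RKIP-transgenic hearts (limma adjusted p = 0.0131) and 0.17 ± 0.05 in GRK-Inh-transgenic hearts (adjusted p = 0.0545). The call in RKIP-transgenic hearts was lost without their replicate 2 (0.19, adjusted p = 0.0963) or control replicate 1 (0.21, adjusted p = 0.094).

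Acadvl, the dehydrogenase that opens the spiral for very long chains, rose in GRK-Inh-transgenic hearts. It had signals of 10978 and 10920.2 in RKIP-transgenic hearts, 11354 and 11539.5 in GRK-Inh-transgenic hearts, and 10454.5 and 10120.5 in controls. The arrays of the 3 groups did not overlap, with GRK-Inh-transgenic hearts the highest. The log2 fold change was 0.15 ± 0.04 in GRK-Inh-transgenic hearts (limma adjusted p = 0.0186) and 0.09 ± 0.04 in RKIP-transgenic hearts (adjusted p = 0.155), and the lines differed by -0.06 ± 0.04 (adjusted p = 0.334). The call was lost without GRK-Inh-transgenic replicate 1 (0.17, adjusted p = 0.0811) or 2 (0.14, adjusted p = 0.124), or control replicate 2 (0.13, adjusted p = 0.0866).

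The other 6 genes of the spiral were not called. The dehydrogenases for long, medium and short chains, Acadl, Acadm and Acads, differed from controls by 0.03, 0.13 and 0.02 in RKIP-transgenic hearts and by 0.07, 0.08 and 0.01 in GRK-Inh-transgenic hearts. The hydratase Echs1 differed by 0.05 in each line, and the thiolase Acaa2 by 0.07 and 0.08 in the RKIP-transgenic and GRK-Inh-transgenic lines. The short-chain hydroxyacyl dehydrogenase Hadh had signals of 27656 and 26262 in RKIP-transgenic hearts, 27647 and 27148.5 in GRK-Inh-transgenic hearts, and 26549.5 and 26921 in controls. The RKIP-transgenic arrays lay on either side of the controls, and the fold changes were 0.01 ± 0.03 and 0.04 ± 0.03. The 95% intervals of these 6 genes reached no further than 0.27 in RKIP-transgenic hearts (Acadm) and 0.21 in GRK-Inh-transgenic hearts (Acadm).

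**Figure D3:**
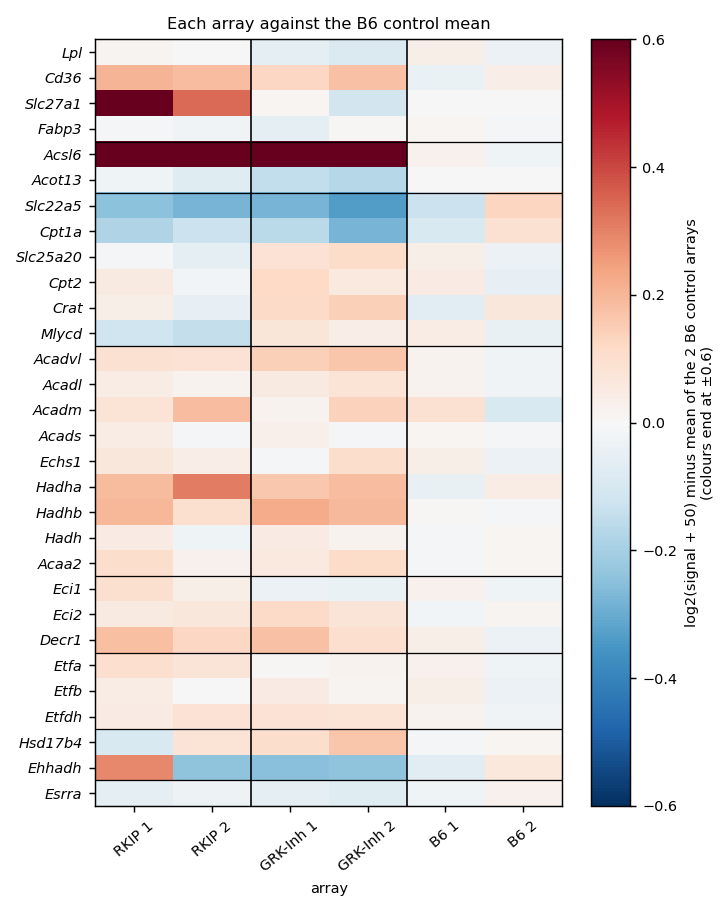
Each of the 6 arrays (columns) for each of the 30 genes (rows, in the order of the pathway), coloured by log2(signal + 50) minus the mean of the 2 B6 control arrays, with colours ending at ±0.6. Acsl6 is beyond the scale on all 4 transgenic arrays, the spiral genes from Acadvl to Acaa2 are mostly pale red there, and Ehhadh is clearly red on RKIP-transgenic array 1 and blue on the other 3 transgenic arrays.

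The auxiliary enzymes, which prepare unsaturated chains for the spiral, were not called (0 of 3). At an unadjusted p under 0.05 limma gave 1 higher in RKIP-transgenic hearts and 2 higher in GRK-Inh-transgenic hearts. Of all genes, 11.8% and 12.3% were higher at that threshold. It also gave 1 higher between the lines, beside 12.9% of all genes. Decr1, the dienoyl-CoA reductase, came closest. It differed by 0.15 ± 0.04 in RKIP-transgenic hearts (limma adjusted p = 0.0504) and 0.14 ± 0.04 in GRK-Inh-transgenic hearts (adjusted p = 0.0649). These results turned on the setting. Decr1 was called in 7 of 19 alternatives in RKIP-transgenic hearts and in 5 of 19 in GRK-Inh-transgenic hearts. Both counts include the looser threshold of 0.1. The isomerase Eci1 had signals of 11855.5 and 11356 in RKIP-transgenic hearts, 10825 and 10798 in GRK-Inh-transgenic hearts, and 11270 (11269.6) and 10903 in controls. The RKIP-transgenic arrays were the highest and the GRK-Inh-transgenic arrays the lowest of the 6, but the difference between the lines, 0.10 ± 0.04, did not pass the test (adjusted p = 0.141). The isomerase Eci2 differed from controls by 0.06 and 0.10 in RKIP-transgenic and GRK-Inh-transgenic hearts.

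Electron transfer flavoprotein and its dehydrogenase take the electrons of the spiral to the respiratory chain, and 0 of their 3 genes were called. At an unadjusted p under 0.05 limma gave 1 higher in each line, beside 11.8% and 12.3% of all genes. Etfa had signals of 13686 and 13458 in RKIP-transgenic hearts, 12850.1 and 12976 in GRK-Inh-transgenic hearts, and 13007 and 12535 in controls. Only the RKIP-transgenic arrays stood above both controls, with a fold change of 0.09 ± 0.04 (limma adjusted p = 0.157). Etfb differed by 0.02 and 0.03 and Etfdh by 0.07 and 0.08 in the RKIP-transgenic and GRK-Inh-transgenic lines.

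The 2 peroxisomal enzymes were not called either, and limma gave 0 of them at an unadjusted p under 0.05 in each line. Between the lines it gave 1 lower in RKIP-transgenic hearts, beside 10.2% of all genes. Hsd17b4, the second enzyme of the peroxisomal spiral, had signals of 2339 and 2644 in RKIP-transgenic hearts, 2692 and 2809.9 in GRK-Inh-transgenic hearts, and 2474 and 2518 in controls. The GRK-Inh-transgenic arrays were the highest, with a fold change of 0.14 ± 0.06 (limma adjusted p = 0.184), and the RKIP-transgenic arrays lay on either side of the controls. Ehhadh, the bifunctional enzyme of the same spiral, was 331 and 215 in RKIP-transgenic hearts, so that its mean there rested on 1 array. It was 213 and 215 in GRK-Inh-transgenic hearts and 249 and 277 in controls. The regulator Esrra, which encodes ERR-alpha, had signals of 956 and 973 in RKIP-transgenic hearts, 954 and 944 in GRK-Inh-transgenic hearts, and 977 and 1012 in controls. The transgenic arrays were the lowest, with fold changes of -0.04 ± 0.07 and -0.06 ± 0.07 that did not pass the test.

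Of the 30 genes, 18 had several probe sets, 54 in all, of which 53 passed the filter when all 19771 probe sets were tested one by one. In RKIP-transgenic hearts 9 of the 53 were called higher and 1 lower, while 4.30% and 3.89% of all probe sets were called in these directions. In GRK-Inh-transgenic hearts the counts were 10 and 1, beside 5.29% and 5.61% of all. Between the lines 3 were higher in RKIP-transgenic hearts and 1 lower, beside 2.85% and 3.23%. Probe sets of a gene share its transcripts and are not independent of each other.

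Cd36 was called by all 3 of its probe sets in both lines, but in different order. The dimmest had signals of 4967 and 5096 in RKIP-transgenic hearts, 5933 and 6178 in GRK-Inh-transgenic hearts, and 4385 and 4004 in controls. The 3 groups did not overlap on it, and its fold changes were 0.26 ± 0.05 and 0.53 ± 0.05 in the RKIP-transgenic and GRK-Inh-transgenic lines (limma adjusted p = 0.0141 and 0.000157). On it the lines differed by -0.26 (adjusted p = 0.0156), whereas the 2 brighter probe sets gave 0.05 and -0.03 between the lines (adjusted p = 0.555 and 0.656).

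The second probe set of Slc27a1 showed the same pattern as the first, with signals of 481 and 415 in RKIP-transgenic hearts, 264 and 299.7 in GRK-Inh-transgenic hearts, and 257 and 246 in controls. Its fold change in RKIP-transgenic hearts was 0.72 ± 0.12 (limma adjusted p = 0.00408), and the lines differed by 0.58 (adjusted p = 0.0139). For Lpl the 2 probe sets disagreed. The second had signals of 28192 and 28920 (28919.9) in RKIP-transgenic hearts, 25268 and 24750 (24749.6) in GRK-Inh-transgenic hearts, and 24946 and 24411 in controls. The RKIP-transgenic arrays stood above the other 4, with 0.21 ± 0.03 against controls (adjusted p = 0.00353), while the brighter probe set gave 0.01.

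In GRK-Inh-transgenic hearts further probe sets were called for genes whose brightest one was not. These were 0.18 for Hadh (limma adjusted p = 0.0167), 0.27 for Decr1 (adjusted p = 0.00647), 0.42 for Crat (adjusted p = 0.0211) and 0.28 for Hsd17b4 (adjusted p = 0.0299), each from a dimmer probe set of its gene. In RKIP-transgenic hearts a dim Cpt1a probe set was lower by -0.53 (adjusted p = 0.0419), with signals of 101 and 119 against 177 and 184 in controls. The called Crat and Cpt1a probe sets above are of the _x_at type, as are the brightest probe sets of Hadh and Hsd17b4. The brightest one of Acaa2 is of the _s_at type. Probes of both types can match several sequences. When such probe sets were left out, 6 of 30 genes were called in RKIP-transgenic hearts and 8 in GRK-Inh-transgenic hearts, with Decr1 added in the RKIP-transgenic line, and Acaa2, Hadh and Hsd17b4 in the GRK-Inh-transgenic line.

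**Figure D4:**
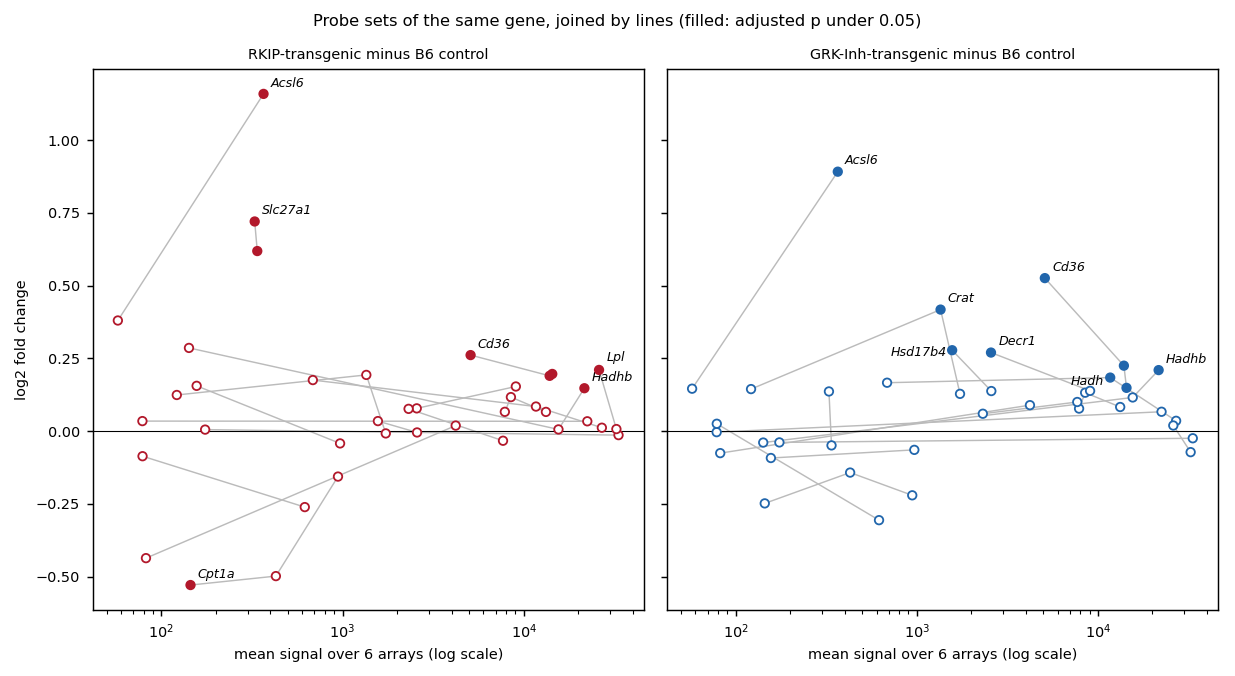
Log2 fold change against B6 control (y axis) and mean signal over the 6 arrays (x axis, log scale) of each tested probe set of the genes with more than 1, joined by a line within a gene, with filled points for an adjusted p under 0.05 in the fit over all probe sets. The probe sets of Cd36 run from 0.15 to 0.53 in GRK-Inh-transgenic hearts, and those of Lpl lie at 0.01 and 0.21 in RKIP-transgenic hearts.

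The genes around this pathway were read from 5 further lists. Their counts are to be read beside the shares of all genes called. These were 5.32% higher and 5.51% lower in RKIP-transgenic hearts, and 5.86% and 7.27% in GRK-Inh-transgenic hearts. Between the lines they were 4.47% and 4.35%. Counts such as 1 of 15 (6.67%), 1 of 13 (7.69%) or 1 of 17 (5.88%) are near these shares. Of 18 tested regulators and PPAR target genes, 4 rose and 4 fell in RKIP-transgenic hearts, and 7 rose and 3 fell in GRK-Inh-transgenic hearts. Angptl4, a secreted inhibitor of lipoprotein lipase, had mean signals of 243 ± 3.1 in RKIP-transgenic hearts, 344 ± 32.3 in GRK-Inh-transgenic hearts and 672 ± 47.9 in controls (SD, n = 2). It fell by 1.30 and 0.87 on the log2 scale in RKIP-transgenic and GRK-Inh-transgenic hearts (limma adjusted p = 2.65e-05 and 0.000306). Ucp3, a mitochondrial carrier whose gene PPARs induce, fell by 1.29 and 1.12 (adjusted p = 2.07e-05 and 4.4e-05).

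Pdk4, the kinase that holds back glucose oxidation when fat is burned, moved in opposite directions. Its mean signals were 4806 ± 80.5 in RKIP-transgenic hearts, 11370.4 ± 362 in GRK-Inh-transgenic hearts and 8929 ± 58.6 in controls (SD, n = 2). The log2 fold change was -0.89 ± 0.04 in RKIP-transgenic hearts and 0.35 ± 0.04 in GRK-Inh-transgenic hearts (limma adjusted p = 5.07e-07 and 0.000273), and the lines differed by -1.23 ± 0.04 (adjusted p = 3.23e-08). The coactivators of PPAR and ERR receptors also split. Ppargc1a rose by 0.21 and 0.65 (adjusted p = 0.0429 and 5.02e-05) and Ppargc1b fell by 0.70 and 0.37 (adjusted p = 1.65e-05 and 0.00105) in RKIP-transgenic and GRK-Inh-transgenic hearts. The Ppargc1a call in RKIP-transgenic hearts was lost without either of their arrays or either control, at values of 0.16 to 0.27. With all arrays kept, it was lost after quantile normalization (limma adjusted p = 0.0525) and with no filter (adjusted p = 0.0919). It was also lost over all probe sets (adjusted p = 0.0567) and without the variance trend (adjusted p = 0.212). Acot1, a cytosolic acyl-CoA thioesterase, rose by 0.62 in GRK-Inh-transgenic hearts (adjusted p = 0.0033) and differed by 0.37 in RKIP-transgenic hearts (adjusted p = 0.0518). Ppara, named after its values were seen, rose by 0.38 and 0.55 (adjusted p = 0.0101 and 0.000886), and the call in RKIP-transgenic hearts was lost without their replicate 2 (0.37) or control replicate 1 (0.30).

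Between the lines, 0 of the 18 regulators and targets were higher in RKIP-transgenic hearts and 5 lower: Pdk4, Ppargc1a, Ppargc1b, Angptl4 and, named after its values were seen, the lipid droplet protein Plin5. At an unadjusted p under 0.05 limma gave 0 higher and 9 lower, beside 12.9% and 10.2% of all genes. The Angptl4 difference of -0.43 (adjusted p = 0.03) was lost without each of the 4 arrays of the lines (-0.51 to -0.34), and with its probe sets averaged (-0.25, adjusted p = 0.293).

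Of 15 other genes of uptake and activation, 1 rose and 2 fell in each line. Fabp5 and Fabp4, the fatty acid-binding proteins of other tissues including capillary endothelium and fat, fell by 0.40 and 0.24 in RKIP-transgenic hearts and by 0.43 and 0.20 in GRK-Inh-transgenic hearts (limma adjusted p from 9.64e-05 to 0.00621). Of the 8 endothelial markers 2 were called lower in each line, but in GRK-Inh-transgenic hearts 3 of the 8 had positive fold changes, up to 0.29. Their summed signals were 6154 to 6155 in RKIP-transgenic hearts, 6861 to 6909 in GRK-Inh-transgenic hearts and 7215 to 7303 in controls. The part of those cells in these values was not tested. Acacb, the enzyme that makes malonyl-CoA at the mitochondrion, rose by 0.29 in RKIP-transgenic hearts (adjusted p = 0.00836). Gpihbp1, which holds lipoprotein lipase on the capillary wall, rose by 0.27 in GRK-Inh-transgenic hearts (adjusted p = 0.0237) and differed by -0.31 between the RKIP-transgenic and GRK-Inh-transgenic lines (adjusted p = 0.0186). Calls of this list that were lost on leaving out an array were Fabp4 in GRK-Inh-transgenic hearts (without their replicate 1 or control replicate 1), Acacb (without RKIP-transgenic replicate 2) and Gpihbp1 (against controls without either GRK-Inh-transgenic array or control replicate 2, and between the lines without RKIP-transgenic replicate 2 or either GRK-Inh-transgenic array), with values given by the same fits of -0.18 and -0.16 for Fabp4, 0.28 for Acacb, 0.22 to 0.27 for Gpihbp1 against controls and -0.31 to -0.22 between the lines. With probe sets averaged, the calls of Acacb (0.26, adjusted p = 0.297) and of Fabp4 in GRK-Inh-transgenic hearts (-0.19, adjusted p = 0.0533) were lost too.

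Of 17 other mitochondrial oxidation enzymes, 2 rose and 1 fell in RKIP-transgenic hearts, and 2 rose and 2 fell in GRK-Inh-transgenic hearts. Pcca, a subunit of propionyl-CoA carboxylase, rose by 0.26 and 0.41 (limma adjusted p = 0.0324 and 0.00216), and Nudt7, a peroxisomal CoA hydrolase kept in this list, fell by 0.22 and 0.38 (adjusted p = 0.0247 and 0.00102) in the RKIP-transgenic and GRK-Inh-transgenic lines. Mcee, the epimerase after Pcca, fell by 0.37 in GRK-Inh-transgenic hearts (adjusted p = 0.000795), and the lines differed by 0.43 (adjusted p = 0.000525). In RKIP-transgenic hearts the Pcca call was lost without their replicate 2 (0.19) or control replicate 2 (0.18), and that of Nudt7 without their replicate 2 (-0.17) or control replicate 1 (-0.24) or 2 (-0.20). With the probe sets of a gene averaged, Nudt7 lost both calls (-0.06 and -0.08 in RKIP-transgenic and GRK-Inh-transgenic hearts, adjusted p = 0.775 and 0.668), and Pcca lost the call in RKIP-transgenic hearts (0.39, adjusted p = 0.051). Of 13 tested genes of peroxisomal oxidation, 1 rose in RKIP-transgenic hearts (catalase, Cat, 0.24, adjusted p = 0.0121). Without either of their arrays or control replicate 1, Cat was at 0.17 to 0.25 and not called. In GRK-Inh-transgenic hearts 0 of the 13 were called. There limma gave 2 higher and 2 lower at an unadjusted p under 0.05, beside 12.3% and 16.1% of all genes. Of 17 genes of the tricarboxylic acid cycle, 1 rose and 3 fell in RKIP-transgenic hearts, and 2 rose and 1 fell in GRK-Inh-transgenic hearts, with fold changes between -0.19 and 0.22. Suclg2, a subunit of succinyl-CoA ligase, rose in both lines (0.22 and 0.19, adjusted p = 0.0184 and 0.0306). It lost both calls without control replicate 2 (0.16 and 0.13) or without either array of the line itself, and the call in GRK-Inh-transgenic hearts with probe sets averaged (0.18, adjusted p = 0.0571). Both Suclg2 calls were also lost without _x_at and _s_at probe sets (0.22 and 0.17, adjusted p = 0.091 and 0.157). The 3 genes lower in RKIP-transgenic hearts were Dlst, Sdhd and Idh3a (-0.18, -0.17 and -0.15, adjusted p = 0.0209, 0.0125 and 0.0309). Their calls were lost with probe sets averaged (-0.01, -0.19 and -0.14). Dlst also differed by -0.25 between the lines (adjusted p = 0.00555). This call too was lost with probe sets averaged (-0.08, adjusted p = 0.667). Without the variance trend limma gave an adjusted p of 0.129. The median fold changes of this list were -0.01 in both lines.

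**Figure D5:**
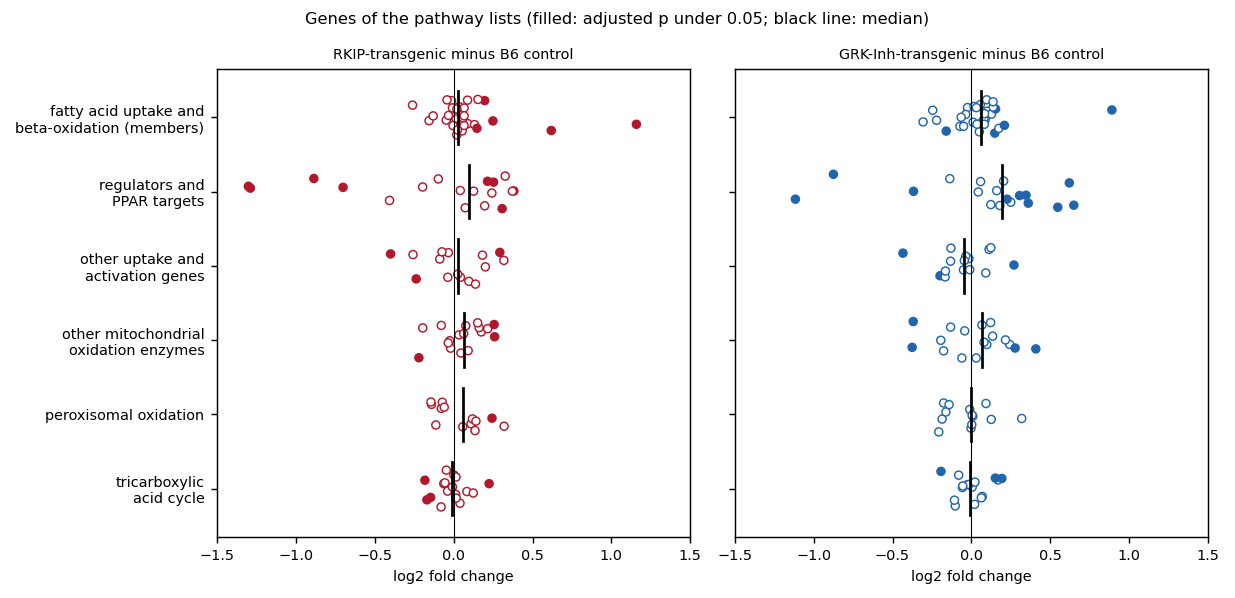
Log2 fold change against B6 control (x axis) of each tested gene of the 30 fatty acid genes and of 5 further lists (y axis; points are spread vertically only for clarity), with filled points for an adjusted p under 0.05 and a black line for the median of a list. The regulators and PPAR targets spread the widest, from -1.30 to 0.38 in RKIP-transgenic hearts and from -1.12 to 0.65 in GRK-Inh-transgenic hearts.

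Leaving out each array in turn left 1 to 4 of the 30 genes called in RKIP-transgenic hearts (4 without their replicate 2, 3 without control replicate 2, 2 without their replicate 1, 1 without control replicate 1), and 2 to 4 in GRK-Inh-transgenic hearts (2 without either of their own arrays, 4 without control replicate 1, 3 without control replicate 2). With gene variances moderated toward a common value in place of the trend, 9 of the 11 calls missed the threshold, and the 2 of Acsl6 stood.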

How the data were processed

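The 6 Affymetrix arrays carry 45101 probe sets. The deposited intensity values were scaled by the authors with GCOS, per the submitters' processing notes, and their trimmed mean (2% off each end) was 300.002 on each array. No further normalization was applied. Probe sets with 1 gene symbol were kept, and the one with the highest mean stood for a gene. Log2(signal + 50) was fitted with limma 3.58.1 in R 4.3.3 (3 groups, variance trend, 3 residual and 7.604 prior degrees of freedom), after a filter at a mean of 6.646, the median of all non-control probe sets. Precision is limited by the number of arrays, and fold changes had a median SE of 0.115 over all genes and 0.0438 over the 30 genes. The members and lists were chosen with earlier results of these data known. The text gives array values for members that were called and for the member with the highest signal among the rest of each role. It gives up to 6 called genes of each further list. Array values of Slc22a5 and Ehhadh, and of some dimmer probe sets, are given outside these rules. The fit was tested on simulated data. Alternatives changed the offset, filter, scaling, probe set rule, variance model and threshold, left out each array, or used the replicate number as a block. Replicate numbers only name arrays: deviations of same-numbered arrays correlated at 0.0258, -0.0298 and -0.0350.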

Additional observations from a re-analysis of the deposited data

Results flagged for a closer look

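A test of the difference between the RKIP-transgenic and GRK-Inh-transgenic lines, both set against the same controls, singled out 4 probe sets of 3 genes. Slc27a1 differed by 0.6678 on the log2 scale on its brighter probe set (limma adjusted p = 0.02686 over genes and 0.03621 over all probe sets). On its dimmer one it differed by 0.5841 (adjusted p = 0.01388 over all probe sets). Both RKIP-transgenic arrays were higher than both GRK-Inh-transgenic arrays each time. The adjusted p-values of Lpl and Cd36 below are also over all probe sets. The second Lpl probe set differed by 0.1909 (adjusted p = 0.007067), with both RKIP-transgenic arrays above the other 4, while the brighter one differed by 0.08 (adjusted p = 0.215). The dimmest of 3 Cd36 probe sets differed by -0.2645 (adjusted p = 0.01562), with both GRK-Inh-transgenic arrays the highest, and the other probe sets of Cd36 did not pass the test. Apart from leaving out each array in turn, no test for single outlying arrays was run on these groups of 2.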

How the results depend on the processing

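Of the 11 calls, none changed sign under any of the 20 alternatives or the 1 chosen after seeing the data. Leaving out each array in turn gave 1 to 4 of the 30 genes called in RKIP-transgenic hearts against controls, 2 to 4 in GRK-Inh-transgenic hearts and 0 to 1 between the lines. Over all genes it gave 621 to 737, 896 to 921 and 465 to 542, against 1219, 1477 and 993 with all arrays. The median fold change of the 30 genes then ran from 0.02453 to 0.055 in RKIP-transgenic hearts and from 0.02851 to 0.07558 in GRK-Inh-transgenic hearts. In the same order of comparisons, variance without a trend called 297, 731 and 255 genes, 1, 1 and 0 of them members. An adjusted p under 0.01 called 519, 769 and 416 genes, with 2, 2 and 0 members. An adjusted p under 0.1 called 2243 genes in GRK-Inh-transgenic hearts (8 members) and 1508 between the lines (2 members). Testing all probe sets called 10, 11 and 4 member probe sets, with medians of 0.06565, 0.07734 and -0.01121. No filter left 3 members in RKIP-transgenic hearts and 0 between the lines, where 617 genes were called. The mean of a gene's probe sets called 756 genes in RKIP-transgenic hearts (member median 0.0583) and 618 between the lines (2 members). Shifting arrays to one median gave a member median of 0.1061 in GRK-Inh-transgenic hearts and -0.03222 between the lines, with 2 members called there. Fitting only the compared groups left 0 members between the lines. Leaving out _x_at and _s_at probe sets, chosen after seeing the data, called 8 members in GRK-Inh-transgenic hearts. With the replicate number as a block, 6, 7 and 1 members and 1150, 1434 and 905 genes were called. The cause of these changes was not tested.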
